A study of Drosophila melanogaster with 6 samples.

Results

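The genes described here encode cytosolic ribosomal proteins of Drosophila melanogaster outside a few duplicated pairs such as RpL22, RpL37, RpS10 and RpS19. Members were taken by symbol: RpL or RpS followed by a digit, the stalk genes RpLP0, RpLP1 and RpLP2, and sta. Of 11982 genes with a probe set of their own, 34 met the rule, and 32 of these passed the filter on dim signals and were tested. A further 48 current gene symbols that meet the rule, sta among them, were not analysed here. The set is not wholly single-form, since RpL10Aa and RpL10Ab, RpS28a, RpS28b and RpS28-like, and RpL34a belong to paralogue groups. RpL7-like and RpL24-like also meet the rule by name, while their yeast counterparts are assembly factors of the large subunit and not parts of the finished ribosome.

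Ovary RNA was measured on 6 one-colour arrays. The stwl bam group held 3 samples labelled as double mutants, whose alleles are not named in the labels. The bam group held 3 samples with the bam[delta86] mutation. Flies were kept on cornmeal molasses food with dry yeast, and total RNA was extracted with TRIzol. The labels give neither age nor separate crosses, so the p-values below describe only the spread among these arrays, which could be technical. Both genotypes carry a bam mutation, and without bam the daughters of germline stem cells are known to remain undifferentiated. Stonewall, the product of stwl, is a DNA-associated protein known to be needed to keep germline stem cells.

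The ribosome is built from a small and a large subunit, each a ribosomal RNA core wrapped by proteins that are mostly present in 1 copy. Flies that lose 1 copy of many of these genes develop slowly and have short bristles, the Minute phenotype. In Drosophila, transcription of these genes starts at a pyrimidine-rich initiator and depends on the TBP-related factor Trf2, and germline stem cells and their daughters are known to adjust ribosome production as they divide and differentiate.

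After quantile normalization few of these genes differed between stwl bam and bam ovaries. Of the 32 tested genes, 3 rose (RpL34a, RpLP0 and RpL17), 0 fell and 29 did not pass in limma at an adjusted p of 0.05. The share that rose, 9.38%, lay beside 11.1% of all 8764 tested genes called higher, and the share that fell, 0%, beside 13.0% called lower. At an unadjusted p under 0.05, 8 members were higher and 3 lower, beside 17.4% and 20.8% of all tested genes. A plain test with each gene's own variance called 2 higher (RpL7-like and RpLP0) and 1 lower (RpS20), beside 5.18% and 5.40% of all tested genes. No member changed by 2-fold or more, beside 7.07% of all tested genes. In whole ovaries fewer cells of a type and less RNA per cell cannot be told apart.

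On this scale the changes were small and narrowly spread. The median change was 0.013 on the log2 scale over the members and -0.037 over all tested genes. From the 10th to the 90th percentile, changes ran from -0.14 to 0.20 over the members and from -0.65 to 0.58 over all tested genes. The 95% interval of the change lay within 0.5 of zero on the log2 scale for 30 of the 32 members and for 27.4% of all tested genes. The interval reached beyond that limit for RpL34a and RpS28a. The standard error had a median of 0.055 over the members and 0.157 over all tested genes. Over the members it was 0.134 with rescaled arrays and 0.194 with intensities as deposited, so their intervals were narrower on the quantile-normalized scale. Standard errors over all tested genes were not taken on those other scales. These genes lie at the bright end of the array, with 28 or 29 of their 32 probe sets among the 200 brightest on every array. The brightest member reached 87.0% to 96.7% of the highest intensity on the stwl bam arrays (RpS18 on each) and 80.8% to 91.3% on the bam arrays. The files carry no flag for saturated probes.

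**Figure D1:**
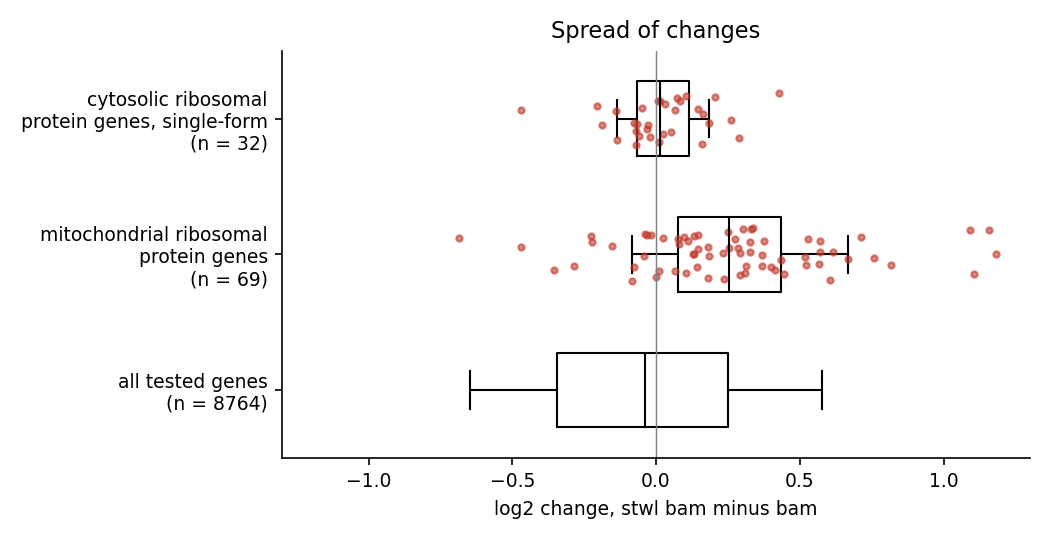
Log2 change (stwl bam minus bam, horizontal axis) of the 32 tested cytosolic ribosomal protein genes, of 69 mitochondrial ribosomal protein genes and of all 8764 tested genes. Boxes span the quartiles, whiskers reach the 10th and 90th percentiles, and points are the single genes of the first 2 lists. The median was 0.013 for the cytosolic genes and 0.25 for the mitochondrial ones after quantile normalization, and 0.21 and 0.24 with rescaled arrays.

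The first group is the stalk of the large subunit, which recruits the GTPase factors of translation. RpLP0, the base that anchors the RpLP1 and RpLP2 dimers, had deposited intensities of 12117, 13141 and 13461 on the stwl bam arrays and 7072, 9704 and 10315 on the bam arrays. After quantile normalization its log2 level was 13.54, 13.51 and 13.56 in stwl bam and 13.28, 13.25 and 13.21 in bam, so the groups did not overlap. RpLP0 rose by 0.29 ± 0.05 (SE) on the log2 scale, 1.22-fold, with a limma adjusted p of 0.00553. It kept its call without any single array, at changes from 0.26 to 0.32. The change was larger, 0.48, with arrays rescaled to 1 trimmed mean, and 0.53 with intensities as deposited, where the limma adjusted p of 0.0663 missed the threshold. It also missed without an intensity trend in the prior, at 0.0779.

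RpLP2 stood at 13.60, 13.52 and 13.52 in stwl bam and 13.39, 13.42 and 13.35 in bam. All 3 stwl bam arrays were above all 3 bam arrays, and the change of 0.16 ± 0.05 (SE) had a limma adjusted p of 0.0571. RpLP1 stood at 13.64, 13.57 and 13.59 in stwl bam and 13.62, 13.65 and 13.62 in bam. Its groups overlapped, at a change of -0.026 with a 95% interval from -0.14 to 0.085, and the change was 0.23 with rescaled arrays and 0.28 as deposited. Whether the 3 stalk genes differ from each other in their change was not tested.

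Of the 15 tested members of the large subunit outside the stalk, 2 rose and 0 fell, with a median change of 0.011. The 13.3% that rose lay near the 11.1% of all tested genes called higher, and 13.0% of all tested genes were called lower. RpL34a encodes a large-subunit protein with a paralogue, RpL34b, that was not analysed here. Its log2 level was 12.30, 12.37 and 12.35 in stwl bam and 11.76, 12.06 and 11.92 in bam, with no overlap. RpL34a rose by 0.43 ± 0.08 (SE), 1.34-fold, the largest increase in the set (limma adjusted p of 0.0084). The files do not say whether its probes tell the paralogues apart. It kept its call without any single array, at changes from 0.36 to 0.51, and lost it without an intensity trend (adjusted p of 0.0543 in limma), in the plain test (0.064) and with arrays centred on the median member (0.28, adjusted p of 0.0909).

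RpL17, whose protein lines the tunnel through which the new chain leaves, stood at 13.23, 13.39 and 13.36 in stwl bam and 12.93, 13.08 and 13.17 in bam. The groups did not overlap, and RpL17 rose by 0.26 ± 0.08 (SE), with a limma adjusted p of 0.0392. This call was lost in 12 of 21 alternative settings. Among them were leaving out bam replicate 1 (a change of 0.21), bam replicate 2 (0.28), stwl bam replicate 2 (0.23) or stwl bam replicate 3 (0.24), and all 3 other normalizations, where its change was 0.39 to 0.47 and the limma adjusted p 0.0836 to 0.132.

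**Figure D2:**
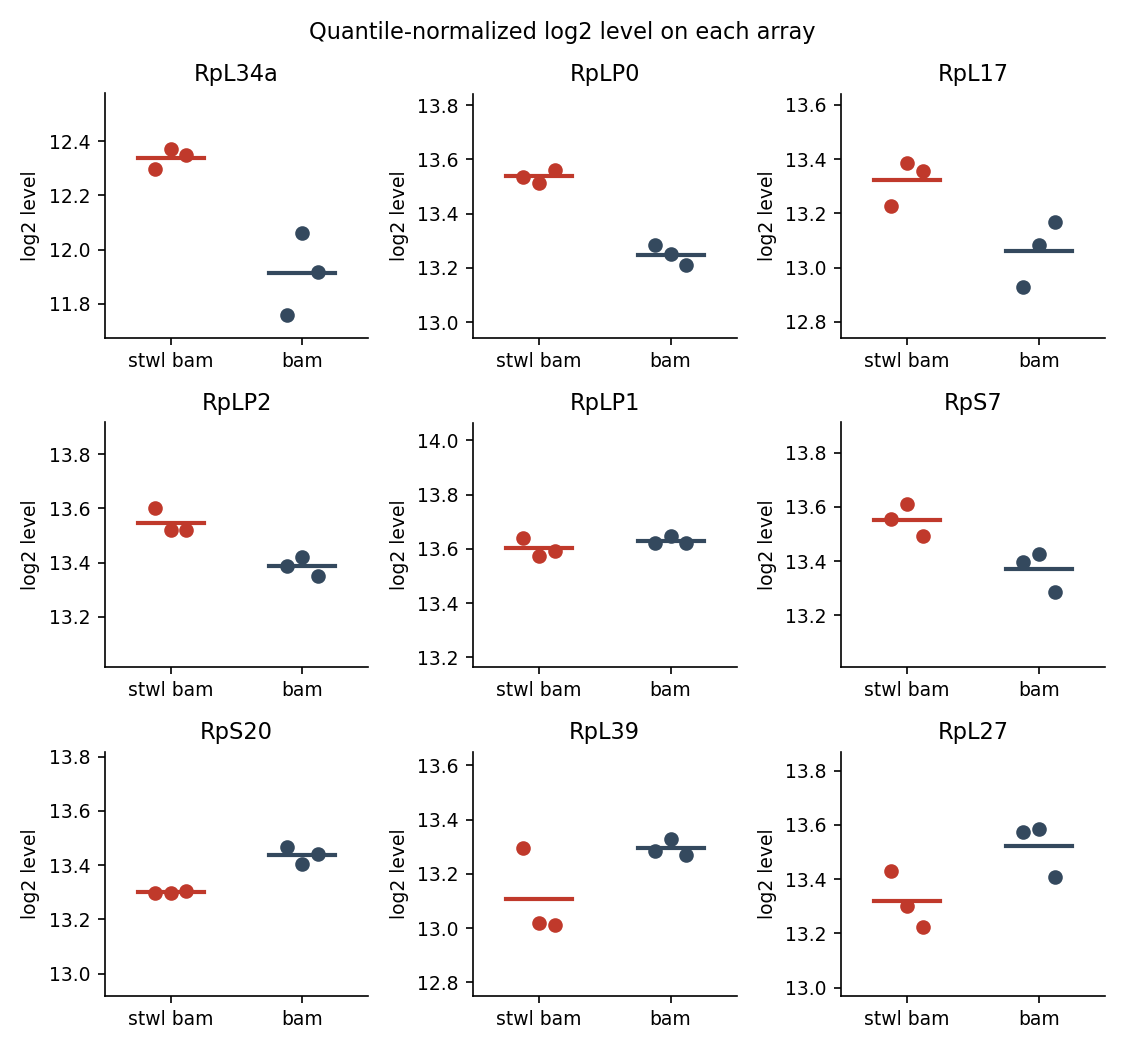
Quantile-normalized log2 level of 9 ribosomal protein genes on each array, stwl bam in red and bam in dark blue, with bars at the mean of 3 arrays and replicates 1 to 3 from left to right. RpL34a, RpLP0, RpL17, RpLP2 and RpS7 had all stwl bam arrays above all bam arrays, RpS20 all below, and the vertical axes span the same range of 0.9 around each gene's mean.

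Other large-subunit members with non-overlapping arrays did not pass. RpL28, whose protein is absent from budding yeast, was at 0.16 ± 0.06 (SE), RpL23, which contributes to the face that meets the small subunit, at 0.15 ± 0.05, and RpL10Ab, part of the mobile L1 stalk, at 0.10 ± 0.05. All stwl bam arrays were above all bam arrays for these 3 genes, and all were below for RpL15, at -0.077 ± 0.048, which was 0.17 with rescaled arrays and 0.23 as deposited. RpL3, which lies next to the peptidyl transferase centre, was at 0.011, and its groups overlapped. RpL32, known as rp49 and often used as the constant transcript in fly RT-PCR, was at -0.061, with levels of 13.59, 13.47 and 13.46 in stwl bam and 13.49, 13.58 and 13.64 in bam, and its change was 0.15 with rescaled arrays. RpL40, made as a ubiquitin fusion, was at 0.068. RpL29, RpL36A and RpL37A had changes of -0.069, -0.070 and 0.014, with overlapping arrays.

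The lowest changes in the large subunit were those of RpL27, RpL39 and RpL41, none of which passed in limma with all arrays weighted equally and no block. With array weights RpL27 and RpL39 passed as lower, and with the replicate number as a block RpL27 did. RpL39, a very small protein at the exit tunnel, stood at 13.29, 13.02 and 13.01 in stwl bam and 13.29, 13.33 and 13.27 in bam. Stwl bam replicate 1 lay within the bam range, while the other two stwl bam arrays lay below it. RpL27 stood at 13.43, 13.30 and 13.22 in stwl bam and 13.57, 13.59 and 13.41 in bam, and the groups overlapped. RpL41, the smallest ribosomal protein, bridges the subunits and stood at 13.43, 13.22 and 13.29 in stwl bam and 13.43, 13.45 and 13.49 in bam. Their changes were -0.20, -0.19 and -0.14 for RpL27, RpL39 and RpL41, but 0.044, 0.016 and 0.093 with intensities as deposited, and -0.011, -0.039 and 0.038 with rescaled arrays. Without stwl bam replicate 1 these were -0.27, -0.29 and -0.21, and all 3 then passed as lower, at limma adjusted p of 0.0295, 0.00776 and 0.0319. In that setting 1219 of all 8497 tested genes passed as lower.

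Of 12 tested members of the small subunit, 0 rose and 0 fell in limma, beside 11.1% and 13.0% of all tested genes. Whether the subunits differ in this was not tested. At an unadjusted p under 0.05, RpS7 was higher and RpS20 lower, and the plain test called only RpS20. RpS7 stood at 13.55, 13.61 and 13.49 in stwl bam and 13.40, 13.43 and 13.29 in bam. Its change of 0.18 ± 0.06 (SE) had a limma adjusted p of 0.0583, with no overlap between groups. RpS20, part of the head of the small subunit, stood at 13.30, 13.30 and 13.31 in stwl bam and 13.47, 13.40 and 13.44 in bam. All stwl bam arrays lay below all bam arrays, and the change of -0.14 ± 0.05 had a limma adjusted p of 0.0774. The change of RpS20 was 0.059 with rescaled arrays and 0.11 as deposited.

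The remaining small-subunit genes moved less, except the dim RpS28a, at -0.47 ± 0.40 (SE), which is described below. RpS18 was at 0.073, RpS30 at 0.083 and RpS12 at 0.053, each with all stwl bam arrays above all bam arrays. RpS12 is known in Drosophila for its part in the competition between Minute and normal cells. RpS28b was at -0.065, with all stwl bam arrays below, and at 0.099 with rescaled arrays. RpS21, RpS26, RpS27A (a ubiquitin fusion), RpS15 and RpS29 had overlapping arrays and changes of 0.03, 0.0062, -0.021, -0.03 and -0.048. Over the whole set, 12 members had all stwl bam arrays above all bam arrays and 3 had all below. That is 37.5% and 9.38% of the 32, beside 19.6% and 23.1% of all tested genes.

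**Figure D3:**
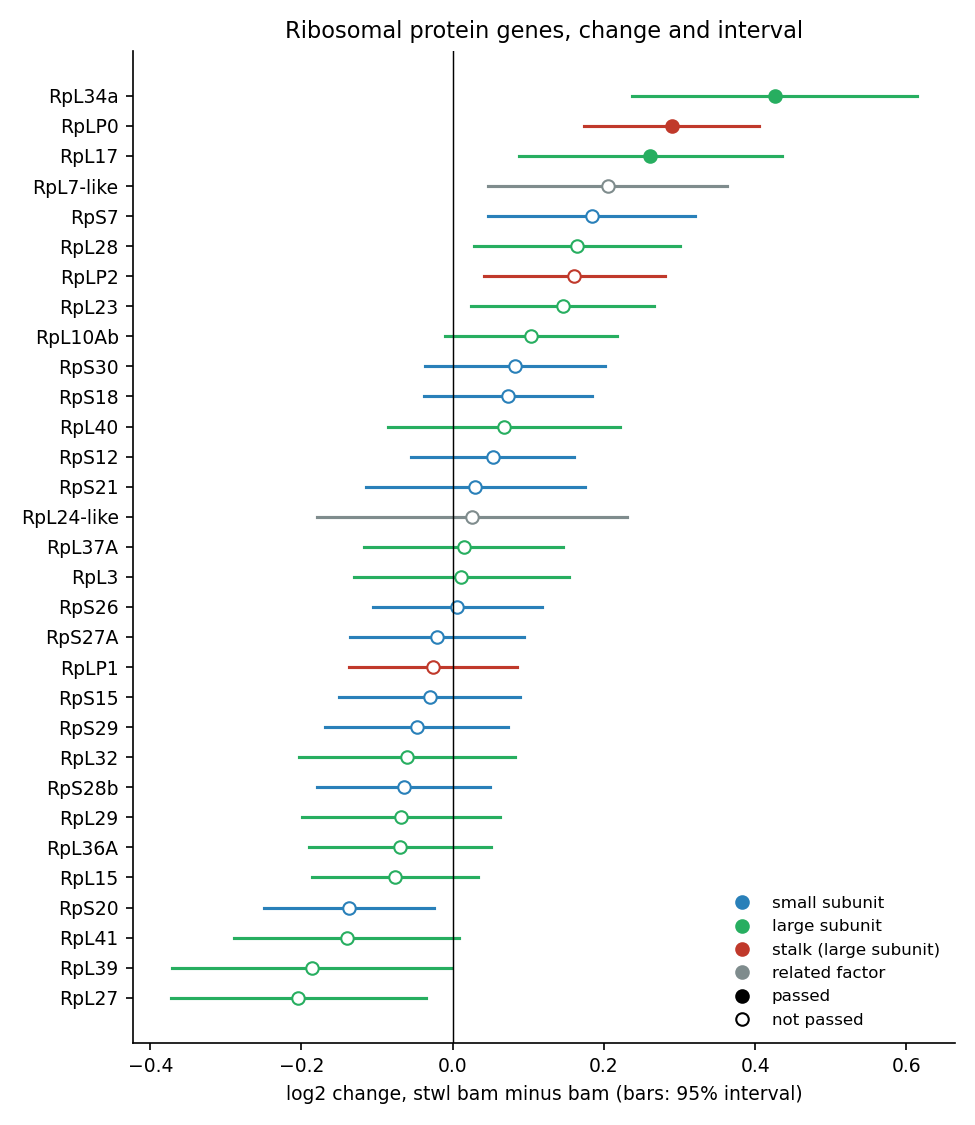
Log2 change (stwl bam minus bam) of 31 tested ribosomal protein genes with 95% intervals, coloured by the part of the ribosome. Filled points passed in limma. The changes run from -0.20 for RpL27 to 0.43 for RpL34a, and all parts of the ribosome lie across zero except the 2 related factors. RpS28a, at -0.47 with an interval from -1.37 to 0.43, is not drawn.

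The 2 related factors had levels below the bulk of the set. RpL7-like, the counterpart of the yeast factor Rlp7, stood at 10.78, 10.79 and 10.72 in stwl bam and 10.52, 10.59 and 10.57 in bam. Its groups did not overlap, and the change of 0.20 ± 0.07 (SE) had a limma adjusted p of 0.064, and 0.0319 in the plain test. RpL24-like, the counterpart of yeast Rlp24, was at 0.025 with overlapping arrays. Relative to the median member on each array, the change of RpL7-like was 0.016 and that of RpL24-like -0.16, both with overlapping arrays.

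Of the paralogues with dim signals, RpS28a had deposited intensities of 15.9, 37.4 and 45.6 in stwl bam and 52.2, 64.0 and 16.4 in bam. One bam array was below background, taken as the 95th percentile of 44 control sets on each array, and the groups overlapped. RpL10Aa exceeded background on 1 bam array only, RpS28-like exceeded it on none of the 6, and neither passed the filter. Their partners RpL10Ab and RpS28b had deposited intensities of 7154.5 or more on every array.

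Several members had further probe sets, and these did not always move with the brightest one. The second RpS30 set had deposited intensities of 286, 509 and 405 in stwl bam and 194, 221 and 177 in bam. It rose by 0.90 ± 0.21 (SE), with a limma adjusted p of 0.0167, against 0.083 for the set that represents the gene. The second RpL3 set rose by 0.47 ± 0.14 (adjusted p of 0.0451 in limma), against 0.011, and another RpL3 set was at 0.051. Their deposited intensities were 346.6 to 626 and 85.6 to 226.2, against 5935.5 or more for the set that represents RpL3. A second RpS7 set was at -0.55 ± 0.26, against 0.18, and did not pass. This dim set had deposited intensities of 36.8 to 79.4, against 7537.8 or more for the set that represents RpS7. With probe sets averaged, RpS30 rose by 0.49 (adjusted p of 0.0135 in limma) and RpS7 was at -0.18. That average gave dim and bright sets equal weight. The other two RpS29 sets were at 0.10 and -0.28, the last above background on 1 array of each genotype. Another 3 tested sets name a member together with a second gene and represent no member here. The set shared by RpL28 and snoRNA:Or-CD12 rose by 0.88 ± 0.26 (adjusted p of 0.0424 in limma), at deposited intensities of 65.2 to 234.4. The set shared by RpLP0 and euc was at -0.84 ± 0.61 and that shared by RpL7-like and CG34164 at 0.33 ± 0.26, and neither passed. The RpLP0 and euc set exceeded background on 1 stwl bam array and 2 bam arrays only, at deposited intensities of 4.3 to 39.2. The files do not say which part of a transcript each set covers.

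A change shared by the whole set is hard to see after quantile normalization, which gives every array the same distribution of values. Before it, the 32 genes made up 4.72%, 4.92% and 4.92% of the summed signal of the stwl bam arrays and 3.74%, 4.44% and 4.83% of that of the bam arrays. Bam replicate 3 lay within the stwl bam range, and bam replicate 1 stood apart. With arrays rescaled to 1 trimmed mean, the median change of the members was 0.21 and 29 of the 32 changes were positive. Without bam replicate 1 the rescaled median was 0.072, with 21 positive. After quantile normalization it was -0.014 without bam replicate 1, with 15 positive. Bam replicate 1 also had the lowest maximum intensity, 10599, against 15314 to 15607 on the other arrays, and its 200 brightest probe sets held 21.3% of the summed signal, against 24.1% to 25.8% on the others.

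**Figure D4:**
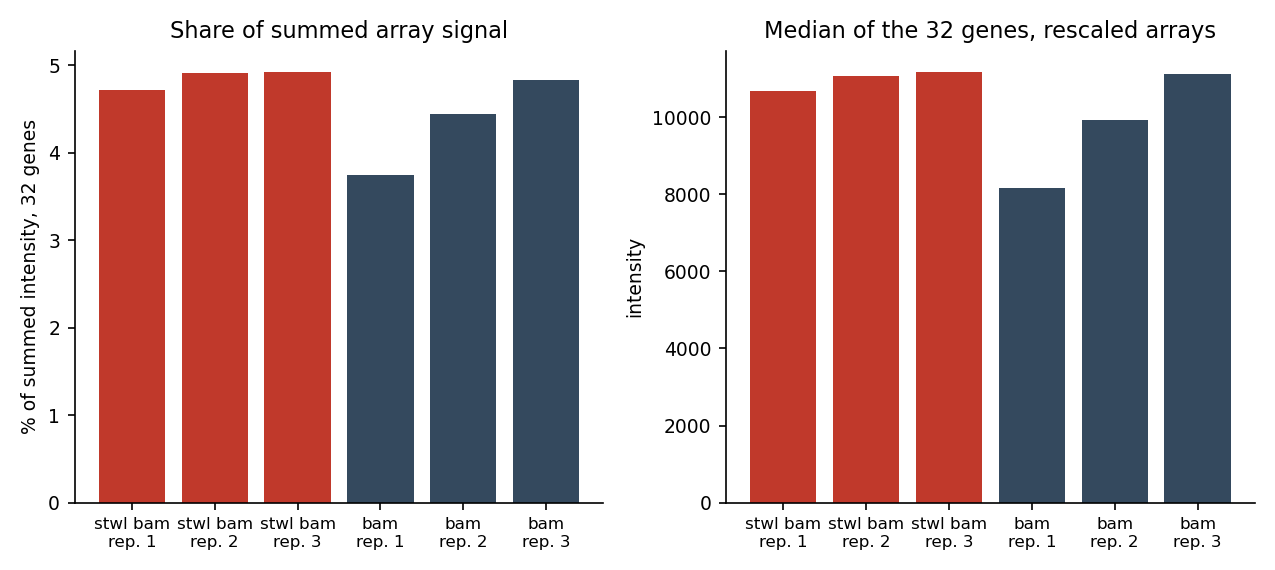
Share of the summed array signal taken by the 32 ribosomal protein genes (left, in percent) and their median intensity after rescaling the arrays to 1 trimmed mean (right), for each array. Bam replicate 1 is low at 3.74%, while bam replicate 3 at 4.83% is among the stwl bam arrays, which run from 4.72% to 4.92%.

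Levels relative to the median member on the same array do not depend on how arrays are scaled to each other. On this scale RpLP0 was at 0.20 ± 0.05 in stwl bam and -0.085 ± 0.045 in bam (SD, n = 3 each), log2 units. RpS7 was at 0.23 ± 0.08 and 0.021 ± 0.068, RpLP2 at 0.22 ± 0.01 and 0.046 ± 0.025, and RpS18 at 0.37 ± 0.04 and 0.23 ± 0.02. RpL27 was at -0.049 ± 0.099 in stwl bam and 0.15 ± 0.08 in bam, and RpS20 at -0.053 ± 0.002 and 0.076 ± 0.025. Stwl bam and bam arrays did not overlap for any of these 6 genes, which were picked from the members. The other members that stood apart were RpL34a, RpL17, RpL28, RpL23, RpL10Ab and RpS12, all higher. RpS28b, RpL29, RpL36A and RpL41 also stood apart and were lower. The remaining members overlapped, RpLP1, RpL3 and RpL32 among them. The share of all tested genes without overlap on this scale was not computed. With every array centred in this way limma called 1 member, RpLP0, and no other. Over all 8764 tested genes it called 368 higher and 1256 lower.

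The controls for RNA integrity and ribosomal RNA moved with genotype. For 5' over 3' signal the ratio was 0.606 ± 0.077 in stwl bam and 0.149 ± 0.03 in bam for actin, and 0.429 ± 0.017 and 0.0937 ± 0.014 for eIF-4a (SD, n = 3 each). The 3' control set for 18S ribosomal RNA, the core of the small subunit, read 3245, 979 and 1745 in stwl bam and 9.1, 43.6 and 24.6 in bam. Stwl bam and bam arrays stood apart for each of these controls, and the exact permutation test of 3 against 3 gave its smallest two-sided p of 0.1. Their part in the results on the ribosomal protein genes was not tested.

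**Figure D5:**
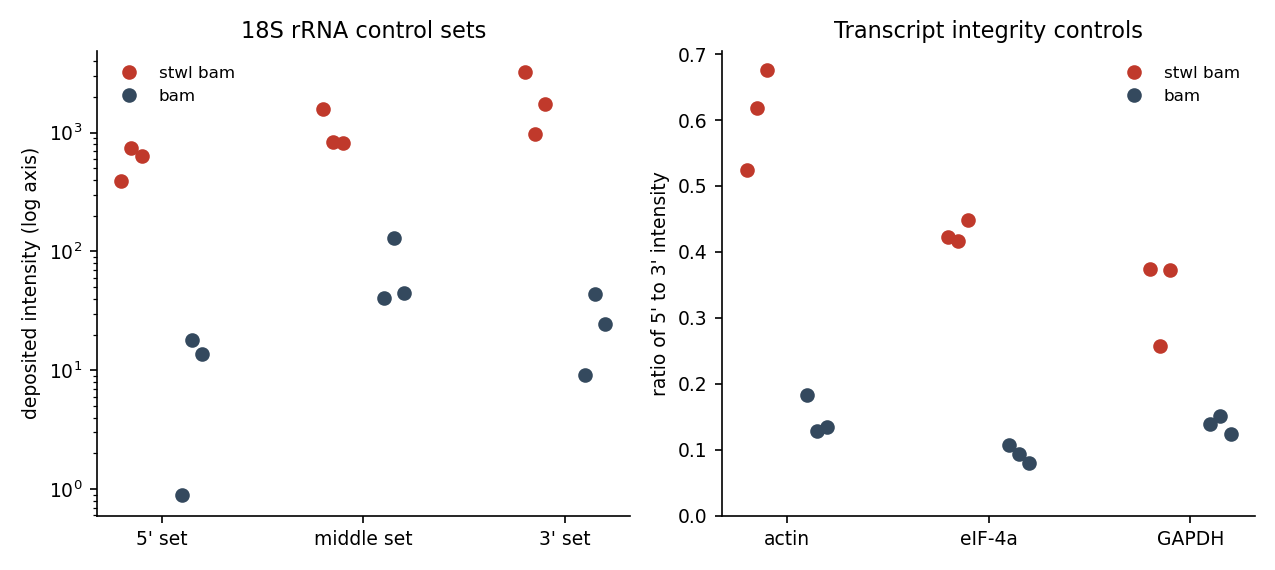
Left, deposited intensity of the 3 control sets for 18S ribosomal RNA on each array (log axis). Right, ratio of 5' to 3' intensity of 3 messenger RNA controls. Each point is an array, stwl bam in red and bam in dark blue, and for all 6 measures the stwl bam arrays lie above the bam arrays.

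Signals of some cell type markers differed between the genotypes, and whether the tissue itself differed was not tested. All of the 9 germ cell markers with a probe set were above background on at least 1 array, and their summed quantile-normalized intensity was 8554 to 9896 in stwl bam and 9110 to 9899 in bam. Of the tested germ cell markers 2 rose and 2 fell. The counts for these and the other markers stand beside 11.1% of all tested genes called higher and 13.0% called lower. The sum over 6 muscle markers was 9700 to 12529 in stwl bam and 6245 to 7093 in bam, with 4 higher and 1 lower. Over 10 haemocyte markers it was 4486 to 5418 in stwl bam and 7864 to 8279 in bam, with 7 of 10 lower. Over 8 somatic ovary markers it was 2300 to 2702 and 2701 to 3108, over 10 fat body markers 14414 to 32702 and 26292 to 29732 (3 higher, 1 lower), and over 10 testis markers, 4 of them below background throughout, 394 to 452 and 503 to 516. Among the fat body markers Obp99c was 11.4-fold, Tsf1 9.26-fold and apolpp 2.77-fold higher, and NLaz was 1.90-fold lower. Changes were positive for 3 and negative for 7 of the 10 fat body markers, with a median of -0.54 on the log2 scale. Yp1, Yp2 and Yp3 had the highest mean levels of these 10 markers in each genotype, so their sum depends mostly on these genes. They stood at 11.54, 10.93 and 11.52 on stwl bam replicate 1 and at 13.25, 13.69 and 12.75 on stwl bam replicate 2. Their changes were negative and did not pass. Whether this list marks fat body in these samples was not tested. No marker was at 0 on all arrays. The part of these markers in the results was not tested. The bam transcript read 384, 175 and 287 in stwl bam and 87.5, 103 and 99.0 in bam, and the stwl transcript 74.8, 86.5 and 52.3 and 76.1, 84.1 and 65.4, so the stwl signal does not separate the genotypes.

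Genes that act on the promoters of ribosomal protein genes were set beside them. Of 5 tested promoter factors 1 rose and 0 fell, beside 11.1% of all tested genes called higher and 13.0% called lower. Trf2 stood at 8.67, 8.75 and 8.53 in stwl bam and 7.56, 7.43 and 7.65 in bam, without overlap. Trf2 rose by 1.11 ± 0.12 (SE), 2.15-fold, with a limma adjusted p of 0.000817, and kept its call in all 21 alternative settings. M1BP, which binds core promoters of many ribosomal protein genes in Drosophila, was at 0.20 and Dref, a factor of growth and replication genes, at 0.051. Neither passed.

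Of 7 tested genes that set ribosome production by growth and nutrient state 1 rose and 2 fell. Over all tested genes 11.1% were called higher and 13.0% lower. gig, the fly counterpart of TSC2 and a brake on cell growth, stood at 8.48, 8.41 and 8.29 in stwl bam and 9.0, 9.12 and 9.04 in bam. It fell by 0.66 ± 0.10 (SE), with a limma adjusted p of 0.00353, and passed in all 21 alternative settings. rictor, a subunit of a growth-regulating kinase complex, fell by 0.73 ± 0.19, and RagC-D, a GTPase of amino acid sensing, rose by 0.47 ± 0.11. rictor lost its call without any single array except stwl bam replicate 1, at changes from -0.57 to -0.78. RagC-D lost it on omission of replicate 1 or 3 of bam or of replicate 3 of stwl bam, at changes from 0.40 to 0.46. S6k, whose product phosphorylates RpS6, was at 0.43, with an adjusted p of 0.066 in limma.

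Among 6 tested elongation and termination factors 1 rose and 2 fell, beside 11.1% and 13.0% of all tested genes. eRF3, the GTPase that works with eRF1 in termination, stood at 11.20, 11.16 and 11.08 in stwl bam and 11.75, 11.61 and 11.61 in bam. It fell by 0.51 ± 0.07 (SE) and passed in all 21 alternative settings (limma adjusted p of 0.00221 with all arrays). eEF1gamma, of the exchange complex of the elongation factor, rose by 0.34 ± 0.07, a call lost without bam replicate 1, where its change was 0.31. eEF1alpha2, the second form of the factor that delivers tRNA, fell by 0.65 ± 0.20, a call lost without any single array except stwl bam replicate 3, at changes from -0.45 to -0.70.

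Of 6 tested genes listed as ribosomal protein escort and stress factors 3 rose and 1 fell, beside 11.1% and 13.0% of all tested genes. eIF6, which keeps new large subunits from joining small ones, rose by 0.40 ± 0.10 (SE), Fib, the methyltransferase of box C/D particles, by 0.33 ± 0.09 and Nop56, of the same particles, by 0.31 ± 0.08. NHP2, of the box H/ACA particles, fell by 0.25 ± 0.07. NHP2 lost its call without any single array, at changes from -0.21 to -0.28, and Nop56 without any except stwl bam replicate 3, at 0.26 to 0.32. eIF6 lost its call on omission of replicate 1 of bam or of replicate 2 or 3 of stwl bam, at 0.34 to 0.42, and Fib on omission of replicate 1 or 3 of bam or of replicate 2 of stwl bam, at 0.27 to 0.32. NHP2 also lost its call in all 3 other normalizations, at -0.14 to -0.21. Without an intensity trend rictor, RagC-D, eEF1gamma, eEF1alpha2, eIF6, Fib, Nop56 and NHP2 did not pass.

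Some duplicated ribosomal protein genes and the mitochondrial ones were set beside the members, and the differences between lists were not tested. Of the duplicated genes, RpL22-like rose by 3.40, RpL37-2 by 2.18 and RpS10a by 1.05 on the log2 scale. RpS19b fell by 0.55 and did not pass once bam replicate 1 was omitted, and RpL37-1, the main form of its pair, was at 0.089 and did not pass. The proteins of the mitochondrial ribosome are encoded in the nucleus. Of their 69 tested genes, 24 rose (34.8%) and 4 fell (5.80%), with a median change of 0.25. Over the whole set of 8764 genes, 11.1% passed as higher and 13.0% as lower, with a median of -0.037. With arrays centred on the median cytosolic gene, 6 mitochondrial genes were higher and 3 lower, with a median of 0.053. In that setting 368 of the 8764 genes passed as higher and 1256 as lower, with a median of -0.20. With rescaled arrays the medians were 0.24 for the mitochondrial and 0.21 for the cytosolic genes, and as deposited 0.30 and 0.27. Their summed signal was 0.848%, 0.89% and 0.887% of the stwl bam arrays and 0.778%, 0.80% and 0.773% of the bam arrays, without overlap.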

How the data were processed

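Transcript levels were measured in Drosophila ovaries on 6 one-colour arrays, 3 stwl bam and 3 bam. Each array's deposited column holds linear intensity, 1 value per probe set. The submitters' processing notes name GCOS, with version and settings not given in the sources used here. Trimmed means (2% to 98%) were 250.0 on 5 arrays and 220.5 on bam replicate 1. Of 18952 probe sets, 183 controls were left out. The others were quantile-normalized and taken to log2 after adding 7.9, the 25th percentile of the intensities, which understates changes of dim genes. Probe sets at or above the 40th percentile on at least 3 arrays were kept (11477). A gene was represented by its brightest set. Symbols came from the array annotation, updated through RefSeq gene numbers (13544 of 13647 matched), with no coordinates used. No sequences of the genes or probes were used here.

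The comparison of genotypes used limma 3.58.1 under R 4.3.3 (lmFit, eBayes with an intensity trend, two-sided, Benjamini-Hochberg over all kept probe sets), and the fit was tested on simulated arrays. Named are all tested members, and up to 4 passing genes of each other list. Some items are not reported here. Members and lists were chosen with earlier results of these data known. Replicate numbers were not used as pairs in the main fit. Deviations of same-numbered arrays correlated between -0.054 and 0.0028, which cannot show whether those samples were handled together. Alternatives changed normalization, offset, filter, probe set rule, prior, weights, block, test and threshold, and left out each array. The number of arrays limits the precision.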

Additional observations from a re-analysis of the deposited data

Results flagged for a closer look

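The 3 control sets for 18S ribosomal RNA, which lie outside the tested genes, gave far more signal on the stwl bam arrays. The 3' set averaged 1990 in stwl bam and 25.8 in bam (deposited intensity), the middle set 1083 and 71.9, and the 5' set 591 and 10.9. The 5' set was below background on all bam arrays so stwl bam was at least 20.3-fold higher. The middle set was above background on every array and 15.9-fold higher. The 3' set was below background on 1 bam array, and was 58.9-fold higher with that array set to background. These folds are on arrays rescaled to 1 trimmed mean. The exact permutation test gave 0.1 for each, its smallest two-sided p. The cause was not tested.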

How the results depend on the processing

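The 3 higher and 0 lower ribosomal protein genes depended on the setting. Higher genes numbered 1 with intensities as deposited, 6 with the filter at the 60th percentile, 5 with a robust prior, 0 without an intensity trend (where 2 were higher at an unadjusted p under 0.05), 8 at a threshold of 0.1, and 1 with arrays centred on the median member, a setting chosen after seeing the data. Lower genes numbered 1 with the stricter filter, 2 with array weights, 2 at a threshold of 0.1 and 1 in the plain test. Over all 8764 tested genes, 967 were higher and 776 lower as deposited. These numbers were 974 and 1156 with a robust prior and 1191 and 1436 with array weights. The stricter filter left 31 members and 6393 genes, of which 978 were higher and 1204 lower. Calls over all genes at a threshold of 0.1 were not counted. Leaving out single arrays gave 2 to 3 higher and 0 to 3 lower genes and median changes from -0.014 to 0.021. The median change was 0.27 as deposited, 0.21 rescaled and 0.19 with median centring. It was 0.072 rescaled without bam replicate 1, also added after seeing the data. With the replicate number as a block, 3 members were higher and 1, RpL27, lower (adjusted p of 0.0497 in limma), and among the named genes eEF1alpha2 lost its call. No named gene that was called changed sign in any of the 21 alternatives, and 13 of the 32 members kept their sign in all of them. Named genes that were not called changed sign 55 times in all. Over all genes, 974 were higher and 1142 lower, and single omissions brought these down to 518 and 553 (bam replicate 1), 578 and 719 (stwl bam replicate 3), 649 and 675 (bam replicate 3) or 696 and 744 (bam replicate 2). With arrays centred on the median member they were 368 and 1256, with a median change of -0.20 over all genes. Without an intensity trend 662 and 788 were called, and in the plain test 454 and 473.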
